A study of Mus musculus with 16 samples.

Results

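Receptor chains for the interleukins that keep CD8 T cells alive and steer their responses were followed across 4 sorted CD8 subsets. They are Il7r, Il2ra, Il2rb, Il4ra, Il15ra, Il21r, Il10ra and Il10rb. They were taken by name from the genes with a probe set annotated to 1 symbol only; 8 of 8 were found among 22180 genes, each through 1 probe set. CD8 T cells, the cytotoxic lymphocytes, came from spleens of female C57BL/6 mice that had carried leukemia cells for 6 weeks, taken from the Eµ-TCL1 transgenic line, which models chronic lymphocytic leukemia (CLL). Lineage-negative TCRb+ CD8+ cells were divided by flow cytometry into PD-1hi effector cells (CD127 low, CD44 intermediate to high, PD-1 high), PD-1int effector cells (the same CD127 and CD44 gates, PD-1 intermediate), memory cells (CD127 high, CD44 high) and naive cells (CD127 high, CD44 low). Each subset has 4 arrays, and naive cells are the baseline. All the mice were leukemic, so no subset shows the leukemia-free state. No source used here gives the ages of the mice or says whether the arrays of a subset come from separate mice; p-values therefore measure only the spread between these arrays, which may be technical.

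These receptors share parts. The interleukin 2, 4, 7, 15 and 21 receptors pair a chain of their own with the common gamma chain; the interleukin 2 and 15 receptors also share the beta chain, Il2rb, to which Il2ra (CD25) or Il15ra is added for high affinity. The interleukin 10 receptor joins Il10ra, which binds the cytokine, with Il10rb, a subunit it shares with receptors of related cytokines. Binding activates Janus kinases, which phosphorylate STAT proteins: mainly STAT5 below the interleukin 2, 7 and 15 receptors, STAT6 below interleukin 4, and STAT3 below interleukins 10 and 21. Interleukins 7 and 15 support survival of naive and memory CD8 cells, and chronically stimulated CD8 cells are known for low CD127. The common gamma chain gene Il2rg and the kinase gene Jak3 were not analysed here.

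All values are log2 expression as deposited; array medians lay between 6.394 and 6.489, and arrays of a subset correlated across genes with a Pearson r of 0.990 to 0.994. Genes of the labelled cell type were high in every subset. Cd8a, a chain of the CD8 co-receptor, lay at 11.19 to 11.59 in PD-1hi, 11.30 to 11.69 in PD-1int, 11.61 to 11.73 in memory and 11.55 to 11.71 in naive cells. In the tests below a gene was called changed at an adjusted p under 0.05 in a limma fit of all 16 arrays, Benjamini-Hochberg adjusted over all 22180 genes; differences are log2 differences ± standard error with n = 4 arrays per subset. Bulk arrays cannot tell fewer positive cells from less RNA per cell.

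**Figure D1:**
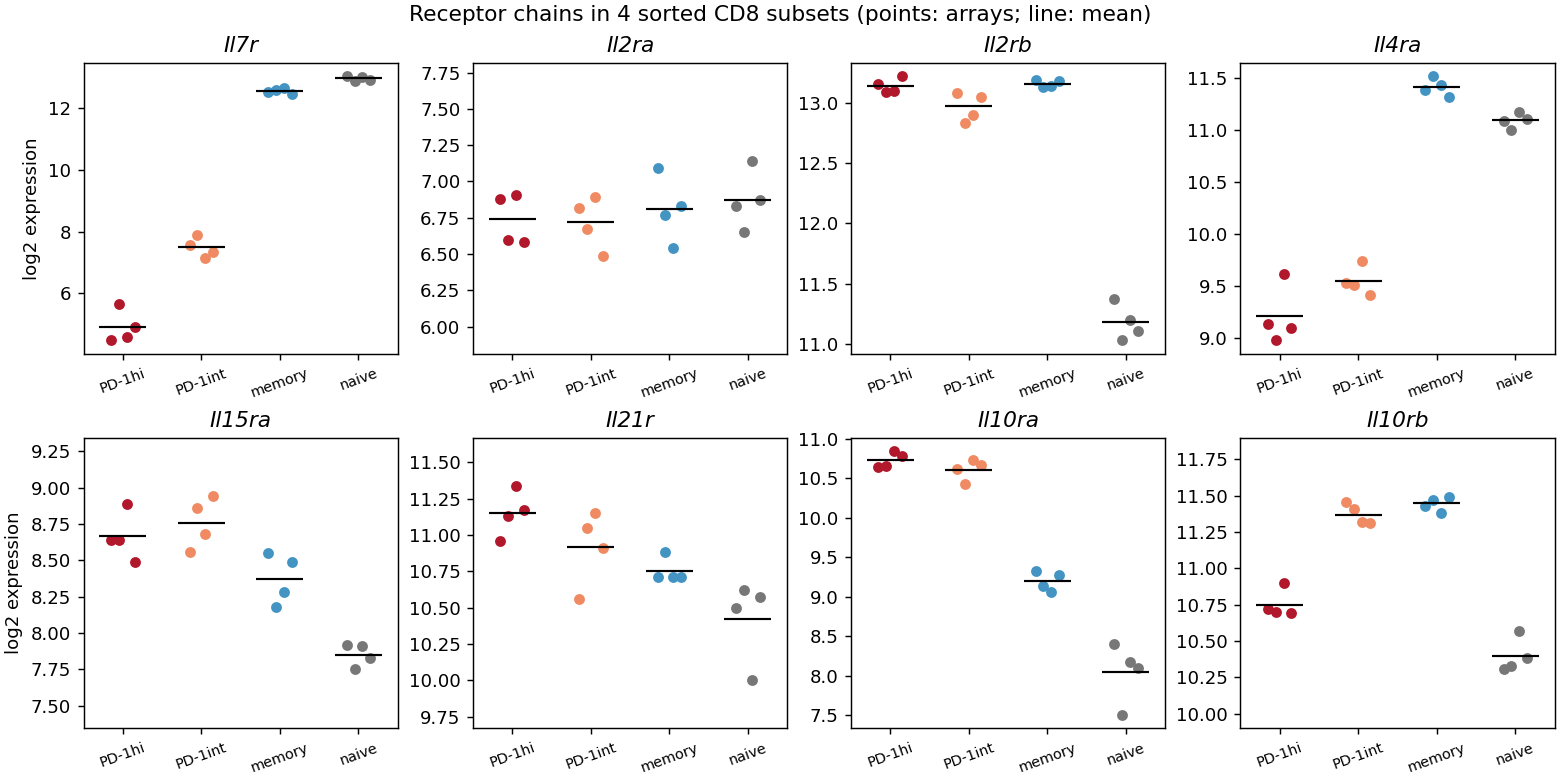
Log2 expression (vertical axis, a separate scale in each panel) of the 8 receptor chains in PD-1hi, PD-1int, memory and naive cells; points are the 4 arrays of a subset and lines their means. Il7r and Il4ra are lower in both effector subsets than in memory and naive cells, and Il10ra is higher there. Il2rb is lower in naive cells than in every other subset, and Il2ra overlaps throughout.

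Il7r encodes CD127, the interleukin 7 receptor alpha chain, and the sort used this protein, so its differences across the CD127 gate only describe the gate. The arrays read 4.48, 5.67, 4.60 and 4.90 in PD-1hi, 7.57, 7.91, 7.14 and 7.35 in PD-1int, 12.53, 12.60, 12.67 and 12.48 in memory and 13.04, 12.89, 13.01 and 12.92 in naive cells. No 2 subsets overlapped, and the largest spread was that of PD-1hi (SD 0.54), where replicate 2 was highest. Against naive cells the mean was lower by 266-fold in PD-1hi and 44.4-fold in PD-1int on this scale, which compresses differences of dim genes. Within the gate that both effector subsets shared, Il7r fell in PD-1hi against PD-1int by 2.58 ± 0.20, or 5.98-fold (limma adjusted p = 8.78e-07). The 2 subsets sorted as CD127 high differed by -0.40 ± 0.20 for memory against naive, which did not pass (limma adjusted p = 0.256, 95% confidence interval -0.81 to 0.02). That standard error is pooled over all 4 subsets, while the SD was 0.08 within memory and 0.07 within naive cells. In a fit of these 2 subsets alone the difference passed, as given in the last section.

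Il4ra was the other chain that was lower in both effector subsets than in memory and naive cells. It encodes the alpha chain that binds interleukin 4 and, in another pairing, interleukin 13. Its values were 9.14, 8.98, 9.62 and 9.10 in PD-1hi, 9.53, 9.51, 9.74 and 9.42 in PD-1int, 11.39, 11.52, 11.44 and 11.32 in memory and 11.09, 11.00, 11.18 and 11.11 in naive cells. Every effector array lay below every memory and naive array. Against naive cells Il4ra fell in PD-1hi by 1.89 ± 0.11, or 3.70-fold (limma adjusted p = 3.50e-10), and in PD-1int by 1.54 ± 0.11, or 2.92-fold (limma adjusted p = 7.50e-09). Against memory it fell in PD-1hi by 2.21 ± 0.11 and in PD-1int by 1.87 ± 0.11 (limma adjusted p = 9.78e-11 and 1.83e-09). Memory stood above naive without overlap but did not pass (0.32 ± 0.11, limma adjusted p = 0.0751). PD-1hi and PD-1int overlapped through PD-1hi replicate 3, and their difference did not pass (-0.34 ± 0.11, limma adjusted p = 0.123). Without that array the difference was -0.48 ± 0.09 (limma adjusted p = 0.00454). The array was singled out after its value was seen, and the check for outlying arrays did not flag it, so the fit of all arrays stands.

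The sequences before the annotated starts of Il7r and Il4ra are shown because these 2 chains were lower in both effector subsets than in memory and naive cells. Of the 8 chains, 5 matched the RefSeq promoter table (build GRCm38.p6). The windows hold the 250 bases before the start and run 5′ to 3′ on the gene's strand: chr15:9529877-9530126 on the minus strand for Il7r and chr7:125552021-125552270 on the plus strand for Il4ra. Capitals mark matches to the ETS core AGGAAG and to the STAT pattern TTCNNNGAA, each searched on both strands.
Il7r: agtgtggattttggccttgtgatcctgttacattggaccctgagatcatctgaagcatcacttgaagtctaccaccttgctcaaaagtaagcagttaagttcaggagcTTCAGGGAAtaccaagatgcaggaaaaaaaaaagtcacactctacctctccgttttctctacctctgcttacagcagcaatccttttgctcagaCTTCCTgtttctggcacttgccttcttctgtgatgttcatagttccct
Il4ra: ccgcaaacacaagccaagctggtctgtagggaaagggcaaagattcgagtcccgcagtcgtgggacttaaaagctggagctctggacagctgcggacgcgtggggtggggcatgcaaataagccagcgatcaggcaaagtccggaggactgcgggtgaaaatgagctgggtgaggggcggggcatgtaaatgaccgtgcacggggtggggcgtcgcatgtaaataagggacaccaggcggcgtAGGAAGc
Il7r held an ETS core whose first base lies 48 bases before the start and a STAT pattern at 142 bases, and Il4ra held an ETS core at 7 bases. Such matches are common: 29.5% of all 32851 promoter windows held the ETS core and 7.02% the STAT pattern. The FOXO pattern GTAAACA, in 3.17% of windows, and the T-box pattern TCACACCT, in 1.12%, were in neither window. Of the regulators of Il7r named next, all but Foxp1 were chosen after their values were seen. Foxo1, a factor that maintains Il7r in naive cells, fell in PD-1hi (-0.49 ± 0.09) and PD-1int (-0.54 ± 0.09) against naive cells. Foxp1, an antagonist of FOXO1 at Il7r, fell too, in PD-1hi (-1.79 ± 0.09), PD-1int (-1.59 ± 0.09) and memory (-0.42 ± 0.09). Gfi1, known as a repressor of Il7r, rose in PD-1hi (0.41 ± 0.10) and PD-1int (0.37 ± 0.10). Gabpa, an ETS factor that binds the Il7r promoter, rose in PD-1hi (0.36 ± 0.08, limma adjusted p = 0.00167) and did not pass in PD-1int (0.21 ± 0.08, limma adjusted p = 0.0584).

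Il2rb, the signalling beta chain for interleukins 2 and 15, was higher in every other subset than in naive cells. Its arrays read 13.16, 13.09, 13.10 and 13.22 in PD-1hi, 13.08, 12.83, 12.90 and 13.05 in PD-1int, 13.19, 13.13, 13.14 and 13.18 in memory, and 11.37, 11.03, 11.20 and 11.11 in naive cells. All naive arrays lay below the 12 others. Against naive cells it rose in PD-1hi by 1.96 ± 0.08 (3.90-fold, limma adjusted p = 2.88e-12), in PD-1int by 1.79 ± 0.08 (3.45-fold, 1.28e-11) and in memory by 1.98 ± 0.08 (3.94-fold, 7.74e-12). Among PD-1hi, PD-1int and memory cells no difference passed. PD-1hi minus PD-1int was 0.17 (95% interval 0.00 to 0.35), PD-1hi minus memory -0.02 (-0.19 to 0.16) and PD-1int minus memory -0.19 (-0.36 to -0.02). Within subsets Il2rb varied little, with a pooled SD of 0.10 against a median of 0.15 over all genes.

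Natural killer cells are also rich in Il2rb, and 8 genes known from natural killer and innate-like cells were measured. Of these, 3 rose in PD-1hi, 4 in PD-1int and 5 in memory against naive cells, among them Eomes, which activated CD8 cells also express. These counts are 37.5%, 50% and 62.5% of the list, against 27.1%, 22.7% and 11.7% of all genes called. The summed level of the 8 genes ran from 11.74 to 11.93 in PD-1hi, 11.64 to 11.78 in PD-1int, 11.13 to 11.32 in memory and 9.95 to 10.08 in naive cells (log2 of the sum). Eomes averaged 11.29 in PD-1hi, 11.19 in PD-1int, 10.25 in memory and 8.04 in naive cells, so the sum mainly follows Eomes. Cd160 rose in PD-1hi (1.21 ± 0.16), PD-1int (0.70 ± 0.16) and memory (1.12 ± 0.16), and Tyrobp in PD-1int (0.51 ± 0.15) and memory (0.91 ± 0.15). Ncr1, a receptor of natural killer cells, stayed low: 5.83 to 5.91 in PD-1hi, 5.61 to 5.85 in PD-1int, 5.74 to 5.94 in memory and 5.63 to 6.01 in naive cells. Klrb1c, which encodes NK1.1, rose in memory alone of the 3 comparisons against naive cells (1.33 ± 0.19, limma adjusted p = 7.35e-05). The part of these genes in the Il2rb values was not tested.

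Il2ra, the alpha chain that completes the high-affinity interleukin 2 receptor on freshly activated cells, passed the test in none of the 6 comparisons. It read 6.88, 6.60, 6.91 and 6.58 in PD-1hi, 6.82, 6.67, 6.89 and 6.49 in PD-1int, 7.09, 6.77, 6.54 and 6.83 in memory, and 6.83, 6.65, 7.14 and 6.87 in naive cells. The ranges of all 4 subsets overlapped, and adjusted p ran from 0.467 to 0.962 (limma). These values lie close to the array medians of 6.394 to 6.489. Without detection calls, how far Il2ra stands above background is not known. The 95% intervals were -0.40 to 0.14 for PD-1hi minus naive, -0.43 to 0.11 for PD-1int minus naive and -0.34 to 0.20 for memory minus naive. CD25 also marks regulatory T cells; their factor Foxp3 lay at 6.04 to 6.28 in PD-1hi, 5.98 to 6.49 in PD-1int, 6.20 to 6.38 in memory and 6.30 to 6.56 in naive cells and passed in no comparison. Of 11 CD4 and regulatory T-cell markers, 2 rose and 2 fell in PD-1hi, 2 rose and 3 fell in PD-1int, and 1 rose and 4 fell in memory, against naive cells. That made 36.4%, 45.5% and 45.5% of the markers called, against 27.1%, 22.7% and 11.7% of all genes. The summed level of the 11 markers ran from 11.20 to 11.39 in PD-1hi, 11.03 to 11.09 in PD-1int, 10.24 to 10.32 in memory and 10.96 to 11.26 in naive cells. Ctla4 rose against naive cells in PD-1hi (2.86 ± 0.13) and PD-1int (1.90 ± 0.13). Gpr83 fell in PD-1hi (-2.47 ± 0.15), PD-1int (-2.49 ± 0.15) and memory (-2.40 ± 0.15), and Trat1 fell in memory (-2.28 ± 0.14). The part of these markers in the Il2ra values was not tested.

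Il15ra, the alpha chain that binds interleukin 15 and presents it to neighbouring cells, was moderately higher in every other subset than in naive cells. The values were 8.64, 8.64, 8.89 and 8.49 in PD-1hi, 8.56, 8.86, 8.68 and 8.94 in PD-1int, 8.55, 8.18, 8.28 and 8.49 in memory, and 7.92, 7.75, 7.91 and 7.83 in naive cells. Naive arrays were again the lowest, with no overlap. The rise against naive cells was 0.81 ± 0.11 in PD-1hi (1.76-fold, limma adjusted p = 7.95e-06), 0.91 ± 0.11 in PD-1int (1.87-fold, 3.20e-06) and 0.52 ± 0.11 in memory (1.43-fold, 0.00253). PD-1int exceeded memory by 0.39 ± 0.11 (limma adjusted p = 0.0164), a call lost without memory replicate 2 (adjusted p = 0.0657), memory replicate 3 (0.0538), PD-1int replicate 2 (0.0534) or PD-1int replicate 4 (0.0632). PD-1hi minus memory was 0.29 ± 0.11 (limma adjusted p = 0.0589), and passed without memory replicate 1 (0.0345) or PD-1hi replicate 4 (0.0338). Il15ra follows Il2ra as the next coding gene in RefSeq's order and, unlike Il15ra, Il2ra passed in no comparison.

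Il21r, the receptor chain for interleukin 21, rose moderately in both effector subsets. Its values were 10.96, 11.13, 11.34 and 11.17 in PD-1hi, 10.56, 11.05, 11.15 and 10.91 in PD-1int, 10.71, 10.88, 10.71 and 10.71 in memory, and 10.50, 10.62, 10.00 and 10.57 in naive cells. Naive replicate 3 and PD-1int replicate 1 were low in their subsets, and PD-1int replicate 1 fell within the naive range. Against naive cells Il21r rose in PD-1hi by 0.73 ± 0.14 (1.66-fold, limma adjusted p = 3.95e-04) and in PD-1int by 0.50 ± 0.14 (1.41-fold, 0.0122). The PD-1int call was lost without PD-1int replicate 3 (limma adjusted p = 0.0501). The memory difference of 0.33 ± 0.14 did not pass (limma adjusted p = 0.149). PD-1hi exceeded memory by 0.40 ± 0.14 with a limma adjusted p of 0.044, a call that ended in 9 of the 24 alternatives. Il21r and Il4ra are neighbouring coding genes in RefSeq's order, and in the effector subsets Il21r was higher and Il4ra lower than in naive cells.

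B cells carry Il4ra and Il21r as well, and the transferred leukemia consists of B cells. Of 18 B-cell and CLL-cell markers measured, 1 rose and 4 fell in PD-1hi, 2 rose and 4 fell in PD-1int, and 1 rose and 1 fell in memory against naive cells. Called markers were 27.8% in PD-1hi, 33.3% in PD-1int and 11.1% in memory, against 27.1%, 22.7% and 11.7% of all genes. The summed level of the 18 markers was 11.84 to 12.19 in PD-1hi, 12.19 to 12.60 in PD-1int, 13.18 to 13.36 in memory and 13.24 to 13.36 in naive cells (log2 of the sum). Bright genes carry most of this sum, chiefly Ighm and Cd5, which T cells also express. Cd5 averaged 11.12 in PD-1hi, 11.52 in PD-1int, 11.27 in memory and 10.97 in naive cells, and rose in PD-1int (0.55 ± 0.11). Ighm, the immunoglobulin mu heavy chain, averaged 8.95 ± 0.64 in PD-1hi, 9.65 ± 0.55 in PD-1int, 12.31 ± 0.06 in memory and 12.63 ± 0.05 in naive cells (SD, n = 4); it fell in both effector subsets and did not pass in memory against naive cells (-0.31 ± 0.26, limma adjusted p = 0.558). Cd79b, a chain of the B-cell receptor, fell in PD-1hi (-0.97 ± 0.13) and PD-1int (-0.72 ± 0.13) against naive cells. Cd22, an inhibitory receptor of B cells, went the other way, with rises of 0.84 ± 0.12 in PD-1hi, 1.74 ± 0.12 in PD-1int and 3.22 ± 0.12 in memory. Cd79a and Ms4a1 passed in none of the 6 comparisons; Ms4a1, which encodes CD20, averaged 5.40 ± 0.18 in PD-1hi, 5.54 ± 0.43 in PD-1int, 5.32 ± 0.17 in memory and 5.35 ± 0.26 in naive cells (SD, n = 4). The part of these markers in the Il4ra values was not tested.

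Il10ra, the chain that binds interleukin 10, gave the largest rise of the receptor chains in both effector subsets. It read 10.65, 10.66, 10.85 and 10.79 in PD-1hi, 10.62, 10.43, 10.73 and 10.67 in PD-1int, 9.33, 9.14, 9.06 and 9.27 in memory, and 8.40, 7.50, 8.17 and 8.10 in naive cells. The effector arrays stood above the memory arrays and these above the naive arrays, while the effector subsets overlapped. Against naive cells Il10ra rose by 2.70 ± 0.14 in PD-1hi (6.48-fold, limma adjusted p = 5.95e-11), 2.57 ± 0.14 in PD-1int (5.93-fold, 1.70e-10) and 1.16 ± 0.14 in memory (2.23-fold, 1.46e-05). Against memory it rose by 1.54 ± 0.14 in PD-1hi and 1.41 ± 0.14 in PD-1int (limma adjusted p = 1.79e-07 and 1.12e-06). Between PD-1hi and PD-1int the difference of 0.13 did not pass (95% interval -0.17 to 0.42, limma adjusted p = 0.783).

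Il10rb, the shared second chain of that receptor, followed another order: memory and PD-1int highest, then PD-1hi, then naive. The arrays read 10.72, 10.70, 10.90 and 10.69 in PD-1hi, 11.46, 11.41, 11.32 and 11.31 in PD-1int, 11.43, 11.47, 11.38 and 11.49 in memory, and 10.31, 10.33, 10.57 and 10.38 in naive cells. Memory and PD-1int overlapped and the other pairs did not. Il10rb rose against naive cells by 0.35 ± 0.08 in PD-1hi (1.27-fold, limma adjusted p = 0.00171), 0.97 ± 0.08 in PD-1int (1.97-fold, 2.17e-08) and 1.05 ± 0.08 in memory (2.07-fold, 2.38e-08). It fell in PD-1hi against PD-1int by 0.62 ± 0.08 (1.54-fold, limma adjusted p = 9.51e-05) and against memory by 0.70 ± 0.08 (1.62-fold, 1.86e-06). Whether this change differs from that of Il10ra was not tested. In RefSeq's order Il10rb lies between the interferon receptor genes Ifnar2 and Ifnar1. Ifnar2 fell in PD-1hi against PD-1int by 1.16 ± 0.10 (limma adjusted p = 1.57e-06), and Ifnar1 did not pass there (-0.30 ± 0.09, limma adjusted p = 0.078).

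Il10ra is abundant on myeloid cells too. Of 16 myeloid and dendritic-cell markers, 4 rose and none fell in PD-1hi and in PD-1int, and 3 rose in memory, against naive cells. As shares these are 25%, 25% and 18.8%, where 27.1%, 22.7% and 11.7% of all genes were called. The summed level of the 16 markers was 12.12 to 12.51 in PD-1hi, 12.36 to 12.61 in PD-1int, 11.71 to 11.79 in memory and 11.12 to 11.38 in naive cells (log2 of the sum). Cst3 and Cd68 averaged 10.93 and 10.99 in PD-1hi, so they carry much of the sum there. Cst3 rose by 0.57 ± 0.07 in PD-1hi, 0.49 ± 0.07 in PD-1int and 0.42 ± 0.07 in memory. Cd68, a lysosomal protein, rose by 3.05 ± 0.17 in PD-1hi and 2.86 ± 0.17 in PD-1int. Itgax, the integrin chain CD11c, rose by 2.40 ± 0.25 in PD-1hi, 4.02 ± 0.25 in PD-1int and 2.93 ± 0.25 in memory. Itgam, the integrin chain CD11b, rose by 1.03 ± 0.20 in PD-1hi and 1.55 ± 0.20 in PD-1int. The macrophage receptor gene Csf1r averaged 6.58 ± 0.30 in PD-1hi, 6.38 ± 0.12 in PD-1int, 6.30 ± 0.02 in memory and 6.33 ± 0.26 in naive cells (SD, n = 4) and passed in no comparison. Of 4 erythroid and platelet genes measured, 1 rose in PD-1hi, Ppbp (25%, against 27.1% of all genes called), and none passed in PD-1int or memory against naive cells. The part of these markers in the Il10ra values was not tested.

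**Figure D2:**
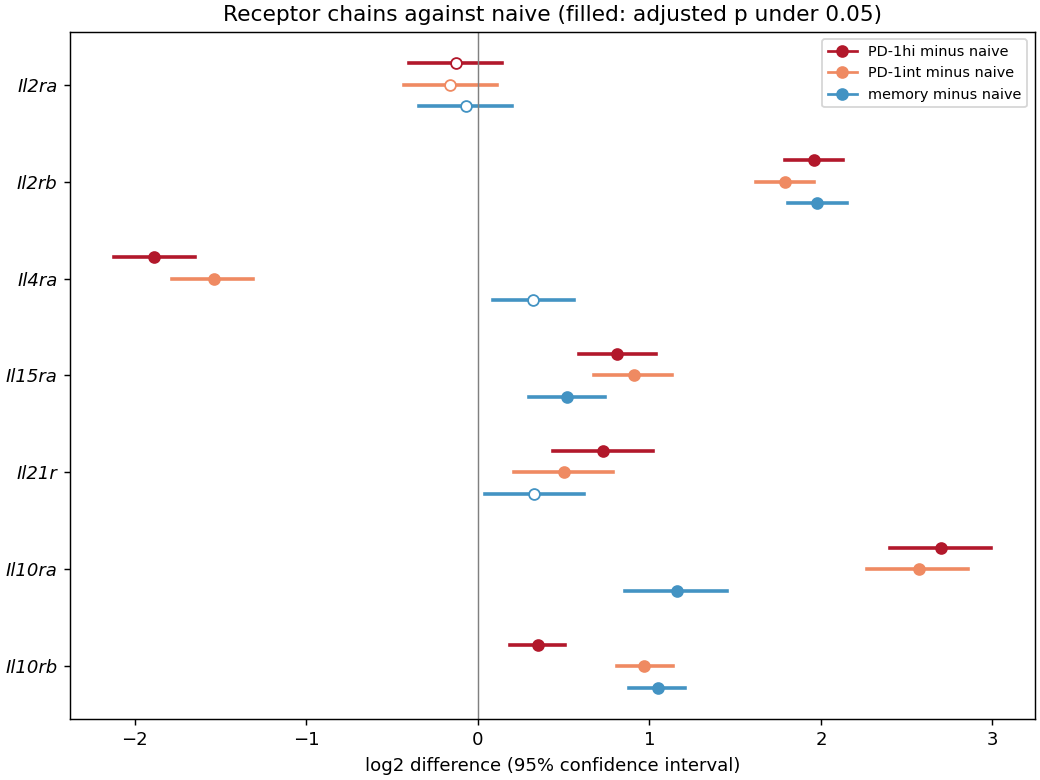
Log2 difference from naive cells (horizontal axis) of 7 receptor chains in PD-1hi, PD-1int and memory cells, with 95% confidence intervals; filled points passed an adjusted p under 0.05. Il10ra rose by 2.70, 2.57 and 1.16, Il2rb by 1.96, 1.79 and 1.98, and Il4ra fell in the effector subsets and did not pass in memory.

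Counted without Il7r where the CD127 gate separates the subsets, 5 of 7 chains rose and 1 fell in PD-1hi against naive cells, where 13.4% of all genes were called higher, 13.7% lower and 27.1% either way. In PD-1int against naive cells 5 of 7 rose and 1 fell, with 11.9% of all genes higher, 10.8% lower and 22.7% either way. In memory against naive cells, with Il7r counted, 4 of 8 rose and none fell, with 6.7% higher, 5.02% lower and 11.7% either way. The median difference of these chains was 0.73 in PD-1hi, 0.91 in PD-1int and 0.43 in memory, against -0.01, -0.03 and -0.02 over all genes in the same comparisons. The comparisons share the naive arrays and are not independent of each other.

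**Figure D3:**
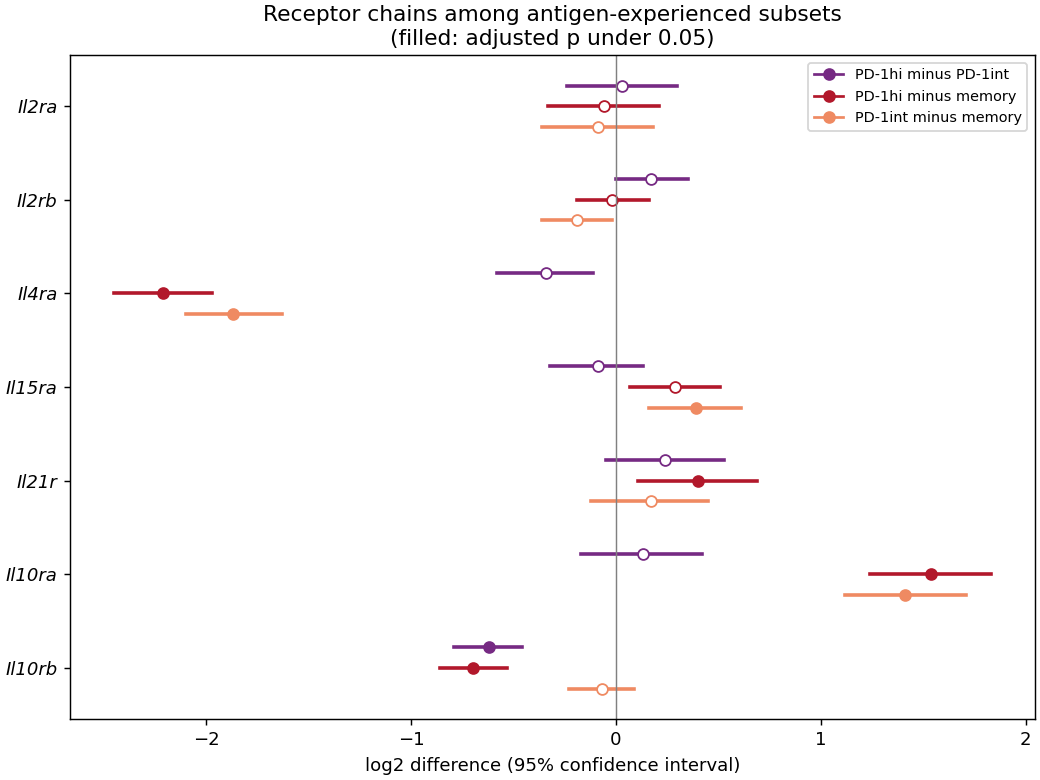
Log2 difference (horizontal axis) of 7 receptor chains between PD-1hi and PD-1int, PD-1hi and memory, and PD-1int and memory cells, with 95% confidence intervals; filled points passed an adjusted p under 0.05. Il10rb separates PD-1hi from both other subsets (-0.62 and -0.70), and Il10ra and Il4ra separate effector from memory cells.

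In PD-1hi against PD-1int none of 8 rose and 2 fell, Il7r and Il10rb; of all genes 1.37% were higher, 1.94% lower and 3.31% either way. In PD-1int against memory 2 of 7 rose, Il10ra and Il15ra, and 1 fell, Il4ra; 8.49% of all genes were higher, 7.66% lower and 16.2% either way. In PD-1hi against memory 2 of 7 rose, Il10ra and Il21r, and 2 fell, Il4ra and Il10rb; 10.8% of all genes were higher, 11.1% lower and 21.9% either way.

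The genes whose levels ran most like a receptor chain over the 16 arrays were found by Pearson r, a description that rests mainly on the subset means. For Il2rb they were Ctla2a (r = 0.994), Ctla2b (0.985) and Ybx3 (0.984), and for Il10ra Gzmb (0.991), Ddx43 (0.986) and Cyba (0.985). Il4ra was followed most closely by Tnfsf8 (0.984), Nsg2 (0.976) and Plac8 (0.974), and Il7r by Ltb (0.991), Treml2 (0.990) and Dzip1 (0.989). Il10rb was closest to Il18rap (0.978), which encodes an interleukin 18 receptor chain, then Samd3 (0.961) and Sgk1 (0.956). For Il15ra the genes were F2rl2 (0.959), Inpp5d (0.948) and Fgr (0.948), and for Il21r Sash3 (0.927), Myd88 (0.917) and Atox1 (0.908). Il2ra had no close partner: its best were Klhl9 (0.757), Rhbdd3 (0.739) and Pde6g (0.734). The values for Il7r are set mainly by the CD127 gate. Among the 7 other chains Il15ra and Il10ra had the highest r (0.92) and Il4ra and Il10ra the lowest (-0.85).

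Among the ligands, Il10 was the one that moved most with the effector subsets. It read 8.68, 8.87, 8.91 and 7.90 in PD-1hi, 6.14, 7.72, 7.67 and 7.02 in PD-1int, 5.51, 5.61, 5.12 and 5.32 in memory, and 5.58, 5.21, 4.97 and 5.50 in naive cells. PD-1hi lay above PD-1int and PD-1int above the CD127-high subsets, with no overlap. Il10 rose against naive cells by 3.27 ± 0.28 in PD-1hi (limma adjusted p = 4.71e-08) and 1.82 ± 0.28 in PD-1int (8.32e-05), and in PD-1hi against PD-1int by 1.45 ± 0.28 (0.00678). Il2, dim throughout, read 4.36, 4.10, 4.11 and 3.94 in PD-1hi, against 4.98, 5.13, 4.38 and 5.10 in PD-1int. It rose in PD-1int against naive cells by 0.71 ± 0.16 and fell in PD-1hi against PD-1int by 0.77 ± 0.16 (limma adjusted p = 0.00287 and 0.0112). Of 10 ligands 1 rose, Il10, and 1 fell, Il15, in PD-1hi, 2 rose, Il10 and Il2, in PD-1int and none passed in memory against naive cells; Il4, Il7 and Il21 passed in no comparison. The share of ligands called was 20% in PD-1hi, 20% in PD-1int and 0% in memory, against 27.1%, 22.7% and 11.7% of all genes. The fall of Il15 (-0.51 ± 0.17, limma adjusted p = 0.0337) was lost in 5 of 24 alternatives.

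**Figure D4:**
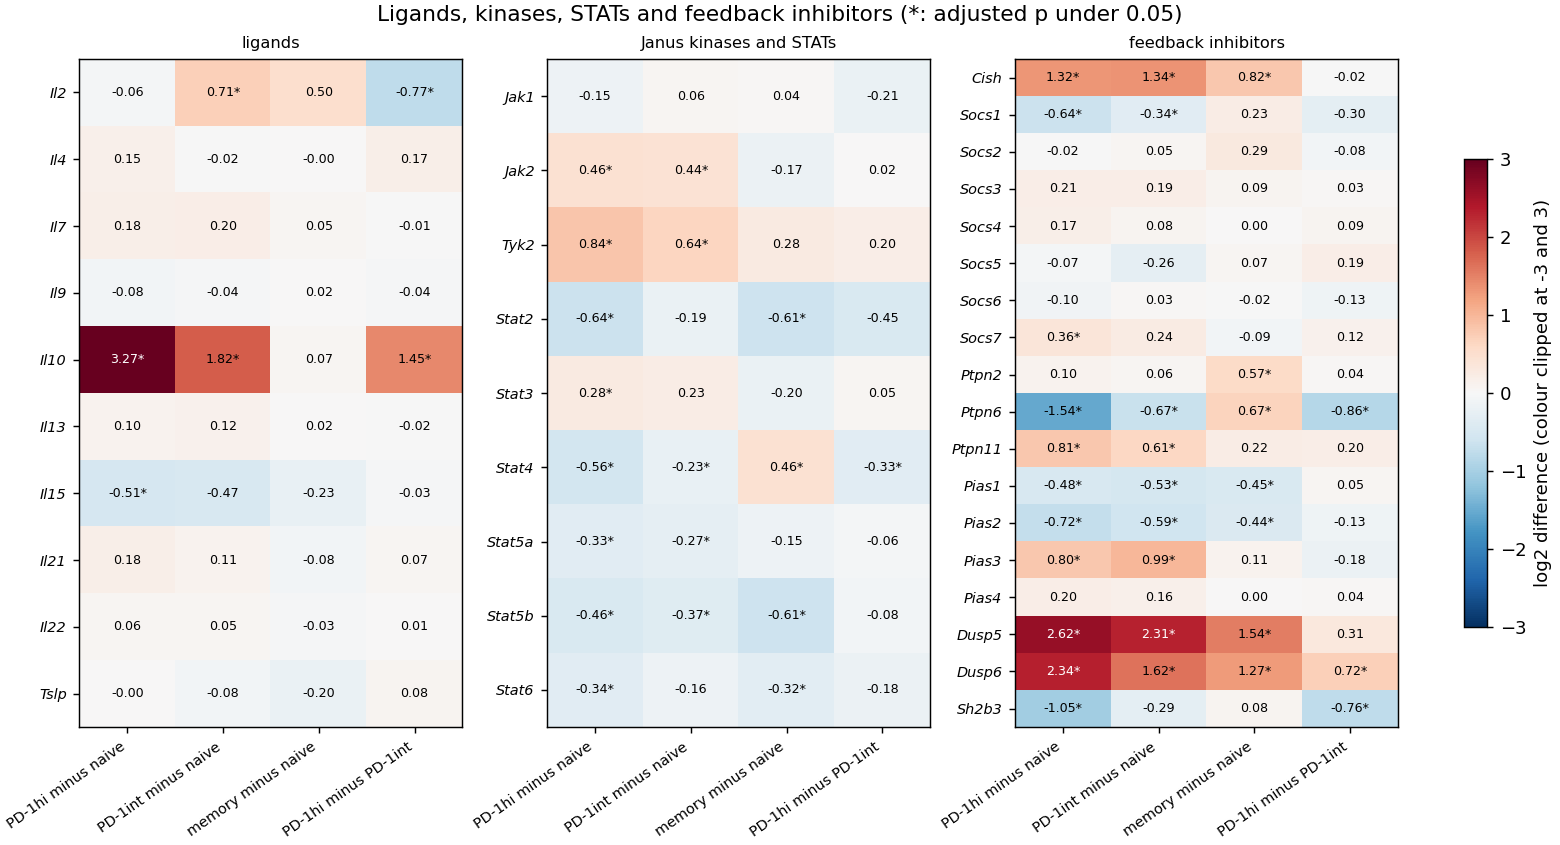
Log2 differences (colour and printed value) of 10 ligands, 9 Janus kinase and STAT genes and 18 feedback inhibitors for PD-1hi, PD-1int and memory against naive cells and for PD-1hi against PD-1int; an asterisk marks an adjusted p under 0.05, and colours end at -3 and 3. Against naive cells Il10 is higher in both effector subsets, and Cish, Dusp5 and Dusp6 are higher in PD-1hi, PD-1int and memory cells. Ptpn6 is lower in the effector subsets and higher in memory.

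Of 9 Janus kinase and STAT genes, 3 rose and 5 fell in PD-1hi, 2 rose and 3 fell in PD-1int, and 1 rose and 3 fell in memory against naive cells (median differences -0.33, -0.16 and -0.17). Called genes made up 88.9%, 55.6% and 44.4% of this list, against 27.1%, 22.7% and 11.7% of all genes. Jak1, the kinase bound to most of the receptor chains, did not pass in any of the 3 comparisons. Tyk2 rose in PD-1hi by 0.84 ± 0.12 and in PD-1int by 0.64 ± 0.12, and Jak2 by 0.46 ± 0.08 and 0.44 ± 0.08. Stat5b, one of the STAT5 pair, fell in PD-1hi (-0.46 ± 0.10), PD-1int (-0.37 ± 0.10) and memory (-0.61 ± 0.10). Stat5a fell in PD-1hi (-0.33 ± 0.09, limma adjusted p = 0.0104) and in PD-1int (-0.27 ± 0.09, 0.0405), the PD-1int call being lost in 10 of 24 alternatives. Stat3 rose in PD-1hi (0.28 ± 0.09, limma adjusted p = 0.0218), a call lost in 4 alternatives, and did not pass in PD-1int (0.23 ± 0.09, 0.0642). Stat4, the STAT of interleukin 12, rose in memory (0.46 ± 0.08) and fell in PD-1hi (-0.56 ± 0.08). It also fell in PD-1int (-0.23 ± 0.08, limma adjusted p = 0.0385), a call lost in 7 alternatives.

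Feedback inhibitors moved both ways: of 18, 6 rose and 5 fell in PD-1hi, 5 rose and 4 fell in PD-1int, and 5 rose and 2 fell in memory against naive cells. Either way 61.1%, 50% and 38.9% of them were called, against 27.1%, 22.7% and 11.7% of all genes. Cish, a SOCS-family inhibitor induced by STAT5, read 9.84, 9.61, 9.99 and 9.88 in PD-1hi, 9.98, 9.35, 9.91 and 10.16 in PD-1int, 9.86, 9.10, 9.22 and 9.14 in memory and 8.60, 8.36, 8.61 and 8.48 in naive cells. All naive arrays were lowest, and Cish rose by 1.32 ± 0.17 in PD-1hi, 1.34 ± 0.17 in PD-1int and 0.82 ± 0.17 in memory (limma adjusted p = 6.27e-06, 7.73e-06 and 0.00279). Socs1, which blocks Janus kinases, fell in PD-1hi (-0.64 ± 0.08) and PD-1int (-0.34 ± 0.08), and Socs3 passed in no comparison. Ptpn6, the phosphatase SHP-1, fell in PD-1hi by 1.54 ± 0.09 and in PD-1int by 0.67 ± 0.09 and rose in memory by 0.67 ± 0.09. Dusp5 and Dusp6, phosphatases of the ERK kinases, rose in PD-1hi by 2.62 ± 0.12 and 2.34 ± 0.17. They also rose in PD-1int by 2.31 ± 0.12 and 1.62 ± 0.17 and in memory by 1.54 ± 0.12 and 1.27 ± 0.17.

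Of 28 genes known as targets of STAT5 or of interleukins 2, 7 and 15, 13 rose and 6 fell in PD-1hi, 14 rose and 4 fell in PD-1int, and 11 rose and 3 fell in memory against naive cells. Together 67.9%, 64.3% and 50% of the targets were called, against 27.1%, 22.7% and 11.7% of all genes. The rises were led by Gzmb, granzyme B (7.01 ± 0.17 in PD-1hi, 6.91 ± 0.17 in PD-1int and 3.26 ± 0.17 in memory). Bcl2l1, which encodes the survival protein BCL-XL, rose by 1.11 ± 0.15 in PD-1hi, 1.32 ± 0.15 in PD-1int and 1.50 ± 0.15 in memory. Bcl2, the survival protein tied to interleukin 7, fell in PD-1hi (-0.53 ± 0.15, limma adjusted p = 0.0104) and did not pass in PD-1int (-0.24 ± 0.15) or memory (0.24 ± 0.15). Pim2, a survival kinase, fell in PD-1hi (-0.97 ± 0.11), and Pim1 passed in no comparison.

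Of 14 genes known as targets of STAT3 or of interleukins 10 and 21, 10 rose and 1 fell in PD-1hi, 11 rose in PD-1int and 3 rose in memory against naive cells, with median differences of 1.10, 0.74 and 0.15. On this list 78.6%, 78.6% and 21.4% were called, against 27.1%, 22.7% and 11.7% of all genes. Maf, a transcription factor that drives Il10, rose by 5.06 ± 0.20 in PD-1hi and 4.13 ± 0.20 in PD-1int, and Batf, an AP-1 factor, by 1.77 ± 0.09 and 1.31 ± 0.09. Bcl6, a repressor, was the member that fell in PD-1hi (-0.53 ± 0.12); its rise in PD-1int (0.35 ± 0.12, limma adjusted p = 0.0498) was lost in 15 of 24 alternatives. Gzmb, Prdm1, Eomes and Il10 stand on this list and also on others, so the lists are not independent.

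Further lists held the rest of the pathway. Of 18 regulators of these receptor genes, 9 rose and 5 fell in PD-1hi, 8 rose and 3 fell in PD-1int, and 3 rose and 6 fell in memory against naive cells; Eomes, which is known to bind and activate Il2rb, rose by 3.26 ± 0.09 in PD-1hi, 3.15 ± 0.09 in PD-1int and 2.21 ± 0.09 in memory. Tbx21, the related factor T-bet, rose by 1.95 ± 0.13 in PD-1hi, 2.58 ± 0.13 in PD-1int and 2.98 ± 0.13 in memory. Of 19 adaptor and phosphoinositide 3-kinase genes, 6 rose and 7 fell in PD-1hi, 8 rose and 4 fell in PD-1int, and 5 rose and 4 fell in memory. Pik3ip1, an inhibitor of the kinase, fell in PD-1hi (-3.39 ± 0.17), PD-1int (-2.81 ± 0.17) and memory (-0.95 ± 0.17). Of 13 trafficking and shedding genes, 6 rose and 2 fell in each effector subset and 1 fell in memory. Cblb, a ubiquitin ligase, rose in PD-1hi (0.79 ± 0.08) and PD-1int (0.42 ± 0.08). Usp18 fell in PD-1hi (-2.04 ± 0.12) and PD-1int (-1.05 ± 0.12). In PD-1hi, PD-1int and memory the regulators called were 77.8%, 61.1% and 50%. For the adaptor list the shares were 68.4%, 63.2% and 47.4%, and for the trafficking list 61.5%, 61.5% and 7.69%. All genes gave 27.1%, 22.7% and 11.7%.

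Of 28 other cytokine receptor chains, 5 rose and 9 fell in PD-1hi, 5 rose and 6 fell in PD-1int, and 6 rose and 5 fell in memory against naive cells, with medians of -0.01, -0.04 and 0.01. Called chains were 50%, 39.3% and 39.3% of these, against 27.1%, 22.7% and 11.7% of all genes. Il6ra, the interleukin 6 receptor, fell in PD-1hi (-4.60 ± 0.08) and PD-1int (-4.20 ± 0.08), and less in memory (-0.40 ± 0.08). Its partner Il6st fell in PD-1hi (-2.09 ± 0.10), PD-1int (-2.52 ± 0.10) and memory (-0.96 ± 0.10). Ifngr2 fell in PD-1hi (-2.84 ± 0.16), PD-1int (-2.97 ± 0.16) and memory (-2.81 ± 0.16). Il18rap rose by 1.14 ± 0.27 in PD-1hi, 3.51 ± 0.27 in PD-1int and 3.96 ± 0.27 in memory. Il18r1 fell in PD-1hi (-2.09 ± 0.16), rose in memory (1.85 ± 0.16) and did not pass in PD-1int (-0.12 ± 0.16). Il12rb1 rose by 2.27 ± 0.17 in PD-1hi, 2.06 ± 0.17 in PD-1int and 1.18 ± 0.17 in memory. Crlf2, which pairs with the Il7r chain in the receptor for thymic stromal lymphopoietin, rose by 0.67 ± 0.11 in PD-1hi and 0.45 ± 0.11 in PD-1int, in the subsets where Il7r was low. Il9r, the interleukin 9 receptor chain, passed in no comparison.

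Proliferation genes also differed between the subsets. All 14 mitosis genes measured rose in each of PD-1hi, PD-1int and memory against naive cells, and their summed level ran from 14.02 to 14.42 in PD-1hi, 13.14 to 13.67 in PD-1int, 11.54 to 12.82 in memory and 10.03 to 10.42 in naive cells (log2 of the sum). Of all genes 13.4%, 11.9% and 6.7% were called higher in the same comparisons. The part of the mitosis genes in the receptor values was not tested.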

How the data were processed

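RNA of sorted cells was extracted with an RNeasy Micro kit, labelled with biotin through a WT Pico kit and hybridised to GeneChip Mouse Gene ST arrays (Affymetrix), per the labels' protocols. Affymetrix Power Tools was used, per the submitters' processing notes; the sources used here give neither its version nor the summarisation method. The authors deposited 1 log2 value for each probe set and array; these span 2.347 to 14.125, from which the log base was inferred. The table holds 41345 probe sets, of which the platform annotation gives 1 symbol for 23521, several for 1814 and none for 16010. Only those with 1 symbol were used, and for 1082 genes with several probe sets the one with the highest mean was kept, which left 22180 genes. No detection calls are given, so a dim gene can be absent, and the number of arrays limits the precision.

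Groups come from the labels' subset names. One limma fit (version 3.58.1, R 4.3.3) with 4 subset means and eBayes used all 16 arrays, and 6 comparisons were drawn with Benjamini-Hochberg adjustment over all genes of each. In simulated data made with each gene's mean and residual SD, for PD-1hi against PD-1int over 22180 genes, the fit recovered 59 of 100 genes with a true difference of 0.5 and 96 of 100 with one of 1 (log2), with 3 false calls among 21980. Alternatives were a replicate block, a fit of the 2 subsets compared, dropping the dimmest 40% of genes, averaging probe sets per gene, median centring, array weights, quantile normalization, eBayes with trend and robust settings, and each array left out.

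The receptor chains and the 16 pathway and marker lists were chosen with earlier results of these data known. Named genes are the 8 chains, up to 4 genes per pathway list and comparison with the smallest adjusted p, Jak1, Stat3, Stat5a, Stat5b, Cish, Socs1, Socs3, Bcl2 and Pim1 whatever their p, the first 4 of each marker list, and the 3 genes most like each chain. Foxo1, Gfi1, Gabpa, Ifnar1, Crlf2, Il9r and the marker genes that are not first on their list were chosen after their values were seen. Promoter windows come from RefSeq, build GRCm38.p6.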

Additional observations from a re-analysis of the deposited data

Results flagged for a closer look

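In 32 groups of 4 arrays (8 chains in 4 subsets), 2 held an array far from the others, by a gap over the range above Dixon's 95% critical value. Il21r was 10.88 in memory replicate 2, where the gap was 0.979 of the range, and the other 3 memory arrays all read 10.71. Il10rb was 10.90 in PD-1hi replicate 3, a gap of 0.865 of the range. Chance gives such an array in about 1 in 20 groups. Il10rb fell in PD-1hi against PD-1int in every one of the 16 fits that left out 1 array.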

How the results depend on the processing

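Over the 6 comparisons of the 8 chains, 24 alternatives gave 1152 values: 1118 kept direction and side of the threshold, 14 lost a call, 11 gained one and 9 changed sign. For Il7r across the CD127 gate the threshold was not used. There a value counted as kept if its direction held and it moved by less than the pooled SD of Il7r. The sign changes were all of differences that had not passed. With 1 array left out, Il2ra ranged from -0.16 to 0.02 in memory minus naive, -0.05 to 0.08 in PD-1hi minus PD-1int, -0.18 to 0.00 in PD-1int minus memory and -0.15 to 0.03 in PD-1hi minus memory, and Il2rb from -0.04 to 0.00 in PD-1hi minus memory. Il2ra in memory minus naive became 0.02 without naive replicate 3 and 0.02 without memory replicate 3; in PD-1hi minus PD-1int it became -0.05 without PD-1int replicate 4, -0.02 without PD-1hi replicate 1 and -0.03 without PD-1hi replicate 3; without memory replicate 1 it became 0.00 in PD-1int minus memory and 0.03 in PD-1hi minus memory. Il2rb in PD-1hi minus memory became 0.13 with quantile normalization and 0.00 without PD-1hi replicate 2. Genes called in PD-1hi against PD-1int ranged from 470 to 751 with 1 array left out, against 734, with 470 without PD-1int replicate 1 and 474 without PD-1hi replicate 4; the cause was not tested. Il7r in memory minus naive passed when only those 2 subsets were fitted (limma adjusted p = 0.00731), as did Il4ra (0.0229). Il21r in PD-1hi minus memory missed with quantile normalization (0.0754) and in 8 fits with 1 array left out. The titles carry the same numbered prefix across the 4 subsets, and no label says what it marks, so whether equal numbers pair the arrays is not settled. Deviations of arrays with equal numbers correlated at -0.048 to 0.151 over 24 pairs (median 0.036), 2 of them over 0.1. The 72 pairs with different numbers gave -0.168 to 0.2 (median -0.009), 1 of them over 0.1. With the replicate block 5 chains passed in memory against naive cells, Il4ra being added (0.042), and 2633 genes in place of 2601. Without detection calls, dim chains such as Il2ra have no stated distance from background.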
